A study of Homo sapiens with 15 samples.

Results

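Notch signalling genes were followed across an RNA-seq series of breast cancer cells that carry a doxycycline-inducible RBM47 transgene, RBM47 being an RNA-binding protein. The genes were 9 rows of the deposited count table, taken by symbol, out of 23368 genes: the receptors NOTCH1, NOTCH2 and NOTCH3, the ligands JAG1, JAG2 and DLL1, and the targets HES1, HEY1 and NRARP. The series holds 15 libraries of polyadenylated RNA, 1 for each of 3 single-cell derived clones at each of 5 doxycycline doses, 0, 1, 2.5, 5 and 25 ng/ml. WT6 and WT10 carried wild type RBM47 and MUT3 carried RBM47-I281fs, a frameshift form. All clones are labelled MDA231, a triple negative line, while the study's methods derive WT6 from CN34-BrM2 and both WT10 and MUT3 from 231-BrM2, brain metastatic derivatives of the CN34 and MDA-MB-231 lines. The mutant is thus represented by 1 clone and the wild type by 2, of different parental lines by the methods. No clone lacks an RBM47 transgene, so within a clone an effect of doxycycline itself and one of RBM47 cannot be told apart, and between WT10 and MUT3 the transgene and the clone cannot be told apart either.

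Notch receptors are cut and activated when a Jagged or Delta ligand on a neighbouring cell binds them. Gamma-secretase then frees the intracellular domain, which enters the nucleus and turns the DNA-bound protein RBPJ from a repressor into an activator with the help of Mastermind coactivators. Typical targets are the HES and HEY repressors and NRARP, which feeds back on the pathway, and in breast epithelium the pathway is known for its part in progenitor fate and in tumours.

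Each library held between 14955172 and 44771871 reads assigned to genes (median 18152381). A count of 3 reads, taken as the lowest level that can be told from 0, was worth 1.19 to 4.09 normalized counts. RBM47 itself was at 258, 3137, 8094, 3966 and 10425 normalized counts in WT6 at the 5 rising doses, at 168, 827, 2822, 8134 and 19877 in WT10, and at 73.8, 92.1, 336, 949 and 22084 in MUT3, so that it rose stepwise in WT10 and MUT3 but was lower at 5 than at 2.5 ng/ml in WT6. VIM, CD44, KRT8 and KRT18, markers of carcinoma cells with mesenchymal traits, were at 7100.3 or more in every library, ESR1 and PGR at 23.8 or less, the leukocyte and endothelial genes PTPRC, PECAM1 and CDH5 at 9.19 or less and the glial gene GFAP between 14.1 and 73.4. The WT6 libraries at 5 and 25 ng/ml stood apart from the rest. Against WT6 without doxycycline, the median gene with a transcript among the shortest 20% was 0.60 and 0.58 higher in them on the log2 scale. The median gene among the longest 20% was 0.41 and 0.46 lower. In the other treated libraries, against their own clone without doxycycline, each such median lay between -0.08 and 0.06. WT10 at 25 ng/ml turned the same way as those of WT6, with 0.06 for the shortest and -0.08 for the longest. WT10 at 1, 2.5 and 5 ng/ml turned the other way. NOTCH1 (9568 nt), NOTCH2 (11425 nt) and JAG1 (5940 nt) lie among the longest transcripts and HES1 (1575 nt) among the shortest. Each of the 9 genes called for its slope in WT6 is therefore also given with the trends on transcript length and GC content removed. It is given without the WT6 libraries at 5 and 25 ng/ml as well.

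The promoter sequences of 7 of the 9 genes were matched in RefSeq (GRCh37), all but those of DLL1 and HEY1. The letters TGGGAA, the core that RBPJ binds, were searched on both strands in the 250 bases before each start. HES1 held 2 matches, at bases -84 to -79 and -70 to -65, and the other 6 promoters held none. Among 35116 RefSeq promoters, 20.8% held at least 1 match and 2.9% held 2 or more. HES4, the tested HES gene with the steepest dose slope in WT6, held 1 match, at bases -76 to -71, while HES2, HES6 and HES7 held none. HES6 and HES7, which also rose in WT6, had no match in this window. The stretches of HES1 (chr3:193853837-193853936, plus strand) and HES4 (chr1:935538-935567, minus strand) are shown because they hold the matches, in capitals. GENCODE places the first base of HES4 at 935552, inside the match itself, so by that annotation the match does not lie wholly before the start.

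HES1: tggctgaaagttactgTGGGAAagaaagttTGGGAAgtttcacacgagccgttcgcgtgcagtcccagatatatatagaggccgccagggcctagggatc
HES4: ggctggggcgagtgTGGGAAagaatgcgga

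The first question was how each gene changed with the dose, and whether it did so with wild type and mutant RBM47 alike. The slope is the change in log2(normalized count + 1) per unit of log2(dose + 1), and 0 to 25 ng/ml spans 4.70 such units. It was fitted with limma over all 15 libraries and 12644 genes, those whose normalized counts averaged 10 or more within every clone, and p-values were Benjamini-Hochberg adjusted over all of them. With 1 library per clone and dose, the error is the spread about the dose lines, and ratios between single libraries are given with intervals for counting error only. Of the 9 genes, 7 entered the fit, while NOTCH3 and DLL1 were too low. As the RNA came from whole cultures, fewer cells that express a gene and less of its RNA per cell cannot be told apart.

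**Figure D1:**
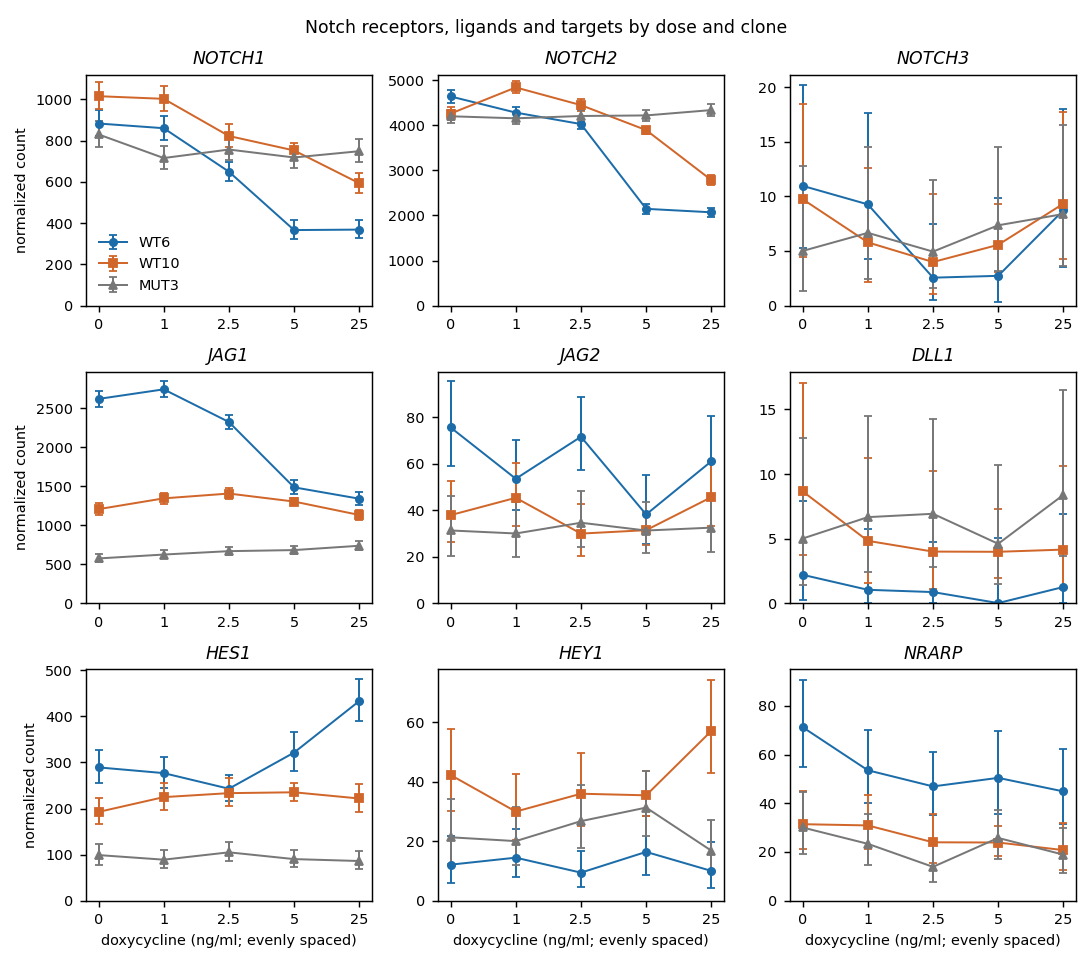
Normalized counts (vertical axes, from 0) of the 9 genes at each doxycycline dose in ng/ml (horizontal axes, evenly spaced), 1 point per library, with WT6 as circles, WT10 as squares and MUT3 as triangles; bars are 95% Poisson intervals of counting error. NOTCH1 and NOTCH2 are lower at high doses in both wild type clones, with WT6 NOTCH2 at 2147 and 2070.3 at 5 and 25 ng/ml, and lie flat in MUT3.

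NOTCH1 fell with the dose in both wild type clones. This receptor gene (chr9:139388885-139440500, minus strand, GRCh37/hg19) stood at 883, 861, 649.7, 366 and 369 normalized counts in WT6 at the 5 rising doses. In WT10 it was at 1016, 1003, 823, 753 and 594, lower at each step. In MUT3 it was at 830.4, 716, 757, 719 and 749. The WT10 libraries at 5 and 25 ng/ml lay below the 3 others of that clone, and the MUT3 values overlapped with no order by dose. Between 0 and 25 ng/ml the ratio was 0.417 in WT6 (95% interval 0.364 to 0.477), 0.584 in WT10 (0.526 to 0.649) and 0.902 in MUT3 (0.810 to 1.00). The slopes were -0.32 ± 0.05 (SE) in WT6 (limma adjusted p = 0.000157), -0.18 ± 0.05 in WT10 (adjusted p = 0.0179) and -0.02 ± 0.05 in MUT3 (adjusted p = 1.00). With the length and GC trends removed, the slopes were -0.23 in WT6 and -0.12 in WT10, both past the threshold (limma adjusted p = 5.66e-06 and 0.00115). Without the WT6 libraries at 5 and 25 ng/ml the WT6 slope was -0.23 with an adjusted p of 0.115. The WT10 call was lost without WT10 at 0 ng/ml (limma adjusted p = 0.0538), at 1 ng/ml (0.05002) or at 25 ng/ml (0.356), with slopes of -0.19, -0.16 and -0.18.

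NOTCH2, the receptor with the highest count, fell in both wild type clones as well. The gene (chr1:120454176-120643366, minus strand) was at 4640.1, 4282, 4028, 2147 and 2070.3 normalized counts in WT6. It was at 4260.3, 4841, 4448, 3894 and 2786 in WT10. In MUT3 all 5 values lay between 4155 and 4338, a narrower range than in either wild type clone. The count at 25 against 0 ng/ml was 0.446 in WT6 (0.421 to 0.472), 0.654 in WT10 (0.622 to 0.687) and 1.03 in MUT3 (0.987 to 1.08). In WT6 the break came between 2.5 and 5 ng/ml and in WT10 the lowest library was that at 25 ng/ml. The slope was -0.29 ± 0.05 in WT6 (limma adjusted p = 0.000247), -0.15 ± 0.05 in WT10 (adjusted p = 0.0361) and 0.01 ± 0.05 in MUT3 (adjusted p = 1.00), and -0.17 and -0.12 in the wild type clones with length and GC trends removed (adjusted p = 9.17e-05 and 0.00309). Without WT6 at 5 and 25 ng/ml the WT6 slope was -0.11 (limma adjusted p = 0.461). The WT10 call rested on few libraries: it was lost without WT10 at 25 ng/ml (slope -0.05, adjusted p = 0.811) or at 1 ng/ml (-0.14, 0.0933), without any single MUT3 library (adjusted p 0.0502 to 0.0510) and without precision weights (0.0674).

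NOTCH2NL, a partial copy of NOTCH2 that can share its reads, moved otherwise. It was at 357, 404, 399.9, 523 and 551 normalized counts in WT6 and rose there (slope 0.14 ± 0.03, limma adjusted p = 0.00251). In WT10 it was at 412 to 500.5 (slope 0.04, adjusted p = 0.447) and in MUT3 at 509 to 619 (slope -0.03, adjusted p = 1.00). The highest WT6 counts of NOTCH2NL, 523 and 551, were in the libraries at 5 and 25 ng/ml, which carry the length trend. No slope of NOTCH2NL without these libraries or with the length and GC trends removed is given here. Whether its rise in WT6 goes beyond that trend was therefore not tested. How reads were divided between NOTCH2 and NOTCH2NL is not given in the sources used here, so the NOTCH2 counts are uncertain to that extent.

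NOTCH3, the third receptor (chr19:15269849-15311806, minus strand), was close to the floor. WT6 held 10.96, 9.26, 2.56, 2.72 and 8.72 normalized counts, WT10 9.74, 5.79, 3.99, 5.56 and 9.33, and MUT3 5.00, 6.66, 4.94, 7.35 and 8.38. These are 2 to 14 reads, the 3 clones overlapped, and no slope was tested.

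JAG1, a Jagged ligand and by count the highest of the 3 ligands, fell in WT6. The gene (chr20:10618332-10654647, minus strand) stood at 2619, 2742, 2323, 1485 and 1339 normalized counts in WT6. In WT10 it was at 1205, 1343, 1405, 1303 and 1130.5, with no order by dose. MUT3 held 573, 623, 666, 679.9 and 735, the lowest of the clones at every dose and higher at each step. The ratio of 25 to 0 ng/ml was 0.511 in WT6 (0.475 to 0.550), 0.938 in WT10 (0.862 to 1.02) and 1.28 in MUT3 (1.14 to 1.45). The slope was -0.24 ± 0.04 in WT6 (limma adjusted p = 0.000169), -0.03 ± 0.04 in WT10 (adjusted p = 0.655) and 0.07 ± 0.04 in MUT3 (adjusted p = 1.00), and it was -0.16 in WT6 with length and GC trends removed (adjusted p = 7.88e-05). Without the WT6 libraries at 5 and 25 ng/ml it was -0.09 (limma adjusted p = 0.537).

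JAG2, the second Jagged ligand (chr14:105607319-105635161, minus strand), was far lower and showed no slope past the threshold. It was at 75.6, 53.5, 71.6, 38.1 and 61.0 normalized counts in WT6, at 37.9, 45.3, 29.9, 31.4 and 45.6 in WT10, and at 31.3, 30.0, 34.6, 31.2 and 32.5 in MUT3. The slopes were -0.07 ± 0.08 in WT6, 0.03 ± 0.09 in WT10 and 0.01 ± 0.09 in MUT3 (limma adjusted p = 0.435, 0.847 and 1.00). DLL1, the Delta ligand (chr6:170591294-170615653, minus strand), was the lowest gene of the set in WT6, with 2.19, 1.03, 0.853, 0 and 1.25 normalized counts, all below 3 reads. Its count of 0 at 5 ng/ml had a 95% Poisson interval up to 5.03, and 3 reads were worth 4.09 in that library. WT10 held 8.65, 4.82, 3.99, 3.97 and 4.14 and MUT3 5.00, 6.66, 6.92, 4.59 and 8.38, and no slope was tested.

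HES1, a repressor and the textbook target of Notch, rose in WT6 and passed the test in neither other clone. The gene (chr3:193853937-193856521, plus strand), whose promoter with 2 matches is printed above, stood at 289, 277, 243, 322 and 433 normalized counts in WT6. WT10 held 193, 225, 233, 235 and 222. MUT3 held 98.8, 88.8, 105, 90.0 and 85.9, below both wild type clones at every dose. The WT6 libraries at 5 and 25 ng/ml were the highest of that clone, and the count at 25 was 1.498 times that at 0 ng/ml (1.27 to 1.76), against 1.15 (0.939 to 1.41) in WT10 and 0.870 (0.631 to 1.20) in MUT3. HES1 rose with the dose in WT6 (slope 0.14 ± 0.04, limma adjusted p = 0.00658), while the slopes were 0.03 ± 0.04 in WT10 (adjusted p = 0.657) and -0.04 ± 0.06 in MUT3 (adjusted p = 1.00). The WT6 call ended with the length and GC trends removed (slope 0.02 ± 0.04, limma adjusted p = 0.605) and without the library at 25 ng/ml (slope 0.03, adjusted p = 0.781), and the slope was -0.13 without those at 5 and 25 ng/ml (adjusted p = 0.462).

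HEY1 and NRARP, the other targets, gave no slope past the threshold. HEY1, a repressor of the HES kin, was at 12.1, 14.4, 9.38, 16.3 and 9.97 normalized counts in WT6. It was at 42.2, 29.9, 35.9, 35.4 and 57.0 in WT10 and at 21.3, 19.98, 26.7, 31.2 and 16.8 in MUT3. WT10 was highest at every dose, and within each clone the counts had no order by dose (slopes -0.05 ± 0.11, 0.13 ± 0.08 and -0.04 ± 0.10, limma adjusted p = 0.744, 0.251 and 1.00). NRARP (chr9:140194083-140196723, minus strand), which holds back the Notch transcription complex, was at 71.2, 53.5, 46.9, 50.4 and 44.8 normalized counts in WT6. WT10 held 31.4, 30.9, 23.9, 23.8 and 20.7, and MUT3 30.0, 23.3, 13.8, 25.7 and 18.9. In all 3 clones the library without doxycycline was the highest, with slopes of -0.12 ± 0.07 in WT6, -0.13 ± 0.08 in WT10 and -0.11 ± 0.09 in MUT3 (limma adjusted p = 0.121, 0.291 and 1.00), and the WT6 slope passed the threshold with length and GC trends removed (-0.17 ± 0.06, adjusted p = 0.0353).

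**Figure D2:**
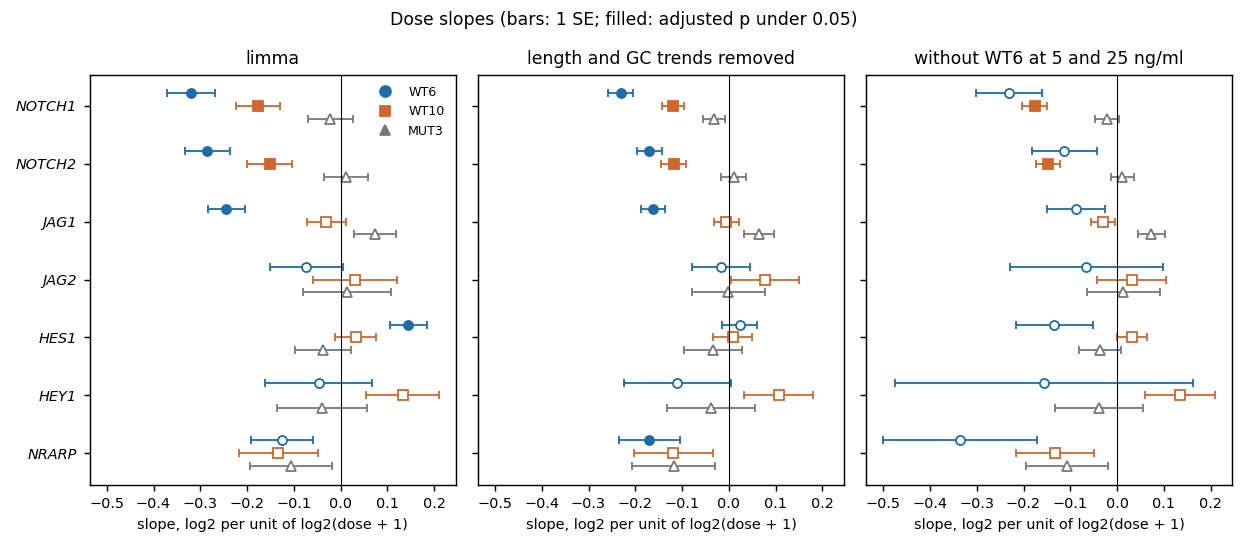
Dose slopes (horizontal axes, log2 per unit of log2(dose + 1)) of the 7 tested genes in WT6 (circles), WT10 (squares) and MUT3 (triangles) by limma, with length and GC trends removed, and without the WT6 libraries at 5 and 25 ng/ml; bars are 1 SE and filled marks have an adjusted p under 0.05. NOTCH1 and NOTCH2 in WT10 are filled in each panel, while the HES1 slope of 0.14 in WT6 is filled in the first panel only.

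Set against all genes, 4 of the 7 tested genes passed the threshold for the slope in WT6, where 57.5% of all genes did. The 3 that fell (28.3% of all genes fell) were NOTCH1, NOTCH2 and JAG1, and the 1 that rose (29.2% of all genes rose) was HES1. In WT10, 2 of 7 passed, both falling, where 20.0% of all genes passed, 9.83% falling and 10.2% rising. In MUT3 none of the 7 passed, where 0.0% of all 12644 genes did. RBM47 itself was not called in MUT3 (limma adjusted p = 0.0517), at 73.8 normalized counts without doxycycline and 22084 at 25 ng/ml. A gene not called in MUT3 may therefore still have changed with the dose. There limma gave 295 genes an unadjusted p under 0.05, none of them among the 7, edgeR called 1 gene and DESeq2 8. The median slope of the 7 was -0.12 in WT6, -0.03 in WT10 and -0.02 in MUT3, beside medians of all genes of 0.0053, -0.0027 and 0.0033. Annotated genes on the other strand overlap NOTCH1, NOTCH2, JAG1, DLL1 and NRARP, and whether strand was used in counting is not given in the sources used here.

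The difference of dose slopes was tested between WT10, with wild type RBM47, and MUT3, with mutant RBM47, clones of the same parental line. At 1, 2.5 and 5 ng/ml RBM47 was at 827, 2822 and 8134 normalized counts in WT10 and 92.1, 336 and 949 in MUT3. At 25 ng/ml it was at 19877 and 22084. The paper's western blot of non-clonal cells detected no mutant protein. The dose slopes therefore do not compare the forms at equal RBM47 levels. The slope difference was -0.15 ± 0.07 for NOTCH1 (limma adjusted p = 0.189) and -0.16 ± 0.07 for NOTCH2 (adjusted p = 0.165). It was -0.10 ± 0.06 for JAG1, 0.07 ± 0.07 for HES1, 0.02 ± 0.13 for JAG2, 0.17 ± 0.12 for HEY1 and -0.03 ± 0.12 for NRARP (adjusted p 0.334 to 0.960). None of the 7 passed in limma, where 5.62% of all genes did; 2 of them, NOTCH1 and NOTCH2, had an unadjusted p under 0.05, and edgeR and DESeq2 called 0 each. Without the WT6 libraries at 5 and 25 ng/ml, which enter the shared spread but neither slope, NOTCH1 (-0.15 ± 0.04, limma adjusted p = 0.00673) and NOTCH2 (-0.16 ± 0.04, adjusted p = 0.00447) passed. They also passed without WT6 at 5 ng/ml alone (adjusted p = 0.0127 and 0.0157), and NOTCH2 passed with length and GC trends removed (-0.13 ± 0.04, adjusted p = 0.0278). Without both WT6 libraries the 2 estimates stayed and their SE fell from 0.07 to 0.04. Of 48 further pathway genes, described below, 3 were then higher and 13 lower, against 2 and 2 in the main fit. The shares of all genes under these settings are not given here, so the calls of NOTCH1 and NOTCH2 cannot be set against them.

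Between the wild type clones, the slope of JAG1 differed. It was 0.21 ± 0.06 lower in WT6 than in WT10 (difference -0.21, limma adjusted p = 0.0285) and was the only 1 of the 7 past the threshold, where 14.4% of all genes passed. It was -0.16 with length and GC trends removed (adjusted p = 0.0149). The call was lost without WT6 at 1 ng/ml (-0.19, limma adjusted p = 0.0524), WT6 at 25 ng/ml (-0.27, 0.0733) or WT10 at 0 ng/ml (-0.17, 0.177), and without WT6 at 5 and 25 ng/ml the difference was -0.06 (0.955). For NOTCH1 the difference was -0.14 ± 0.07, for NOTCH2 -0.13 ± 0.07 and for HES1 0.11 ± 0.06 (adjusted p = 0.157, 0.175 and 0.187). NOTCH1 passed with length and GC trends removed (-0.11 ± 0.04, adjusted p = 0.0472). Both differences use the WT10 libraries and so are not independent of each other.

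The clones also differed in the level of these genes. Levels were compared at the mean log2(dose + 1), which is 3.05 ng/ml, and the error is the spread about the dose lines of single clones, not the spread between clones. Between WT6 and WT10 all 7 tested genes passed, where 75.3% of all genes did, 38.5% higher and 36.9% lower in WT6. Higher in WT6 were NRARP (1.00 ± 0.17 on the log2 scale, limma adjusted p = 5.77e-05), JAG1 (0.66 ± 0.09, adjusted p = 6.88e-06), JAG2 (0.63 ± 0.19, adjusted p = 0.00683) and HES1 (0.47 ± 0.10, adjusted p = 0.000351). Lower in WT6 were HEY1 (-1.61 ± 0.22, adjusted p = 8.06e-06), NOTCH1 (-0.50 ± 0.11, adjusted p = 0.000675) and NOTCH2 (-0.30 ± 0.11, adjusted p = 0.0202). NRARP and HES1 in WT6 lay above all WT10 values and HEY1 below all of them, while the clones overlapped for JAG1, JAG2, NOTCH1 and NOTCH2. Without the WT6 libraries at 5 and 25 ng/ml the difference was -0.01 for NOTCH2 (limma adjusted p = 0.958) and 0.14 for HES1 (adjusted p = 0.331). The NOTCH2 call was lost without WT6 at 0 ng/ml (adjusted p = 0.0553), WT10 at 1 ng/ml (0.0567) or WT10 at 2.5 ng/ml (0.0521), and that of JAG2 without WT6 at 25 ng/ml (0.42, 0.0716).

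Between WT10 and MUT3, 3 of the 7 passed, where 48.3% of all genes did, 23.0% higher and 25.3% lower in WT10. These were HES1 (1.23 ± 0.12 on the log2 scale, limma adjusted p = 7.24e-07), JAG1 (0.96 ± 0.10, adjusted p = 1.17e-06) and HEY1 (0.76 ± 0.20, adjusted p = 0.00502), all higher in WT10. The lowest HES1 count of WT10 was 193 and the highest of MUT3 105. For JAG1 these were 1130.5 and 735, and for HEY1 29.9 and 31.2, which overlap. The HEY1 call was lost without WT10 at 25 ng/ml (0.58, limma adjusted p = 0.0516) or MUT3 at 25 ng/ml (0.50, 0.0786) and without all libraries at 25 ng/ml (0.32, 0.278). NOTCH1 (0.13 ± 0.11), NOTCH2 (-0.09 ± 0.11), JAG2 (0.23 ± 0.21) and NRARP (0.25 ± 0.19) did not pass (limma adjusted p 0.307 to 0.532), and NOTCH1 passed with length and GC trends removed (0.13 ± 0.05, adjusted p = 0.0462).

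Per kilobase of transcript NOTCH2, JAG1, HES1 and NOTCH1 were the highest in every clone, while their order and that of the genes below varied. In WT6 the mean level over the 5 libraries was 354 ± 109 (SD) normalized counts per kb for JAG1 and 301 ± 108 for NOTCH2, which overlap. HES1 followed at 199 ± 46.4, overlapping NOTCH2, then NOTCH1 at 65.4 ± 26.4. Below came NRARP at 20.2 ± 3.98, JAG2 at 10.4 ± 2.60 and HEY1 at 5.66 ± 1.34, with JAG2 and HEY1 overlapping, and NOTCH3 at 0.789 ± 0.452 and DLL1 at 0.282 ± 0.208, which also overlap. WT10 put NOTCH2 first at 354 ± 68.5, then JAG1 at 215 ± 18.5, HES1 at 141 ± 10.9, NOTCH1 at 87.5 ± 18.6 and HEY1 at 18.2 ± 4.74, none of which overlapped its neighbour. NRARP at 9.90 ± 1.79 and JAG2 at 6.59 ± 1.29 overlapped, as did DLL1 at 1.35 ± 0.531 and NOTCH3 at 0.793 ± 0.290. In MUT3 NOTCH2 (370 ± 5.97) and JAG1 (110 ± 10.3) again led, followed by NOTCH1 (78.8 ± 4.84) above HES1 (59.5 ± 4.99), with no overlap between neighbours. HEY1 (10.6 ± 2.62), NRARP (8.46 ± 2.36) and JAG2 (5.53 ± 0.302) overlapped in that order, and DLL1 (1.67 ± 0.406) lay above NOTCH3 (0.745 ± 0.172). The SD here is over doses of 1 clone, n = 5.

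**Figure D3:**
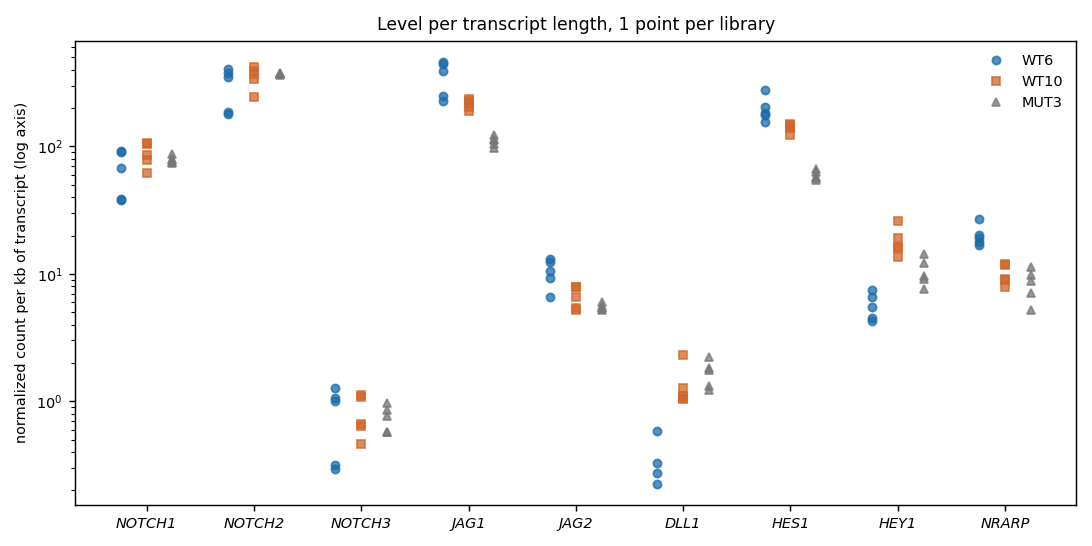
Normalized count per kb of transcript (vertical axis, log scale) of the 9 genes in each library, with WT6 as circles, WT10 as squares and MUT3 as triangles; the WT6 library at 5 ng/ml, with 0 reads on DLL1, is left out for that gene. NOTCH2, JAG1, HES1 and NOTCH1 lie well above the other genes in all clones, and HES1 and JAG1 are lowest in MUT3.

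As a description, the genes with the most similar pattern over the 15 libraries were found by Pearson's r of log2(normalized count + 1) among all tested genes. For NOTCH1 these were KIAA0664 (r = 0.989) and NUMA1 (0.981), for NOTCH2 POLR1A (0.986) and KAT6A (0.981), and for JAG1 PXDN and UBE3C (0.988 each). HES1 was nearest to KIAA0141 (0.979) and DTX3 (0.978), the latter from a family known to act on Notch. JAG2 was nearest to GOLGA2 (0.932), HEY1 to N4BP2L2 (0.952) and NRARP to NCS1 (0.931). All points share clones, doses and library traits, the length trend of WT6 included.

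Of 58 further genes of the pathway, listed by role, all were in the table and 48 were tested. In WT6, 13 of them rose and 20 fell, in WT10 3 rose and 7 fell, and in MUT3 none passed in limma (2 had an unadjusted p under 0.05, edgeR and DESeq2 called 0 each). These counts stand beside the shares of all genes given above, and the medians of the 48 slopes were -0.06, -0.03 and 0.01. The difference WT10 minus MUT3 passed for 4 of the 48, where 5.62% of all genes passed. The difference WT6 minus WT10 passed for 10 of the 48, where 14.4% of all genes did. Without the WT6 libraries at 5 and 25 ng/ml, 1 of the 48 passed for the slope in WT6, MAML1, and in WT10 6 rose and 18 fell. The shares of all genes under that setting are not given here, so these counts cannot be set against them.

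By role, counts and directions were as follows. They stand beside 29.2% of all genes rising and 28.3% falling in WT6, and 10.2% rising and 9.83% falling in WT10. The role counts are small and were not tested against these shares. Among 9 nuclear activators, 5 fell in WT6 (RBPJ, MAML1, MAML2, CREBBP and EP300) and KAT2B rose, and MAML1 and CREBBP fell in WT10. MAML1, a Mastermind coactivator, was at 1935, 1717, 1436, 843 and 784 normalized counts in WT6 and at 2004, 1905, 1766, 1608 and 1201 in WT10, and between 2222 and 2332 in MUT3. Its slope was -0.31 ± 0.04 in WT6 and -0.16 ± 0.04 in WT10 (limma adjusted p = 3.03e-05 and 0.00937). CREBBP, a histone acetyltransferase, had slopes of -0.33 ± 0.04 and -0.15 ± 0.04 (adjusted p = 2.74e-05 and 0.0101). Among 8 corepressors 5 fell in WT6, SPEN and HDAC1 among them, CIR1 rose, and HDAC1 fell in WT10. The 3 tested ubiquitin ligases that act on ligands had 2 fall in WT6, and NEURL1B fell in both wild type clones (slopes -0.33 ± 0.07 and -0.22 ± 0.05, adjusted p = 0.00106 and 0.00933). The processing proteases ADAM10 and ADAM17 fell in WT6, and with length and GC trends removed ADAM10 fell and FURIN rose. Of the sugar transferases that modify the receptors, POFUT1 and POGLUT1 fell in both wild type clones and RFNG rose in WT6. Among 8 tested genes of receptor turnover 3 rose and 3 fell in WT6 and none passed in WT10. With length and GC trends removed, 10 of the 13 that rose in WT6 and 14 of the 20 that fell were still called, and the calls lost included those of RBPJ, MAML2, ADAM17, CIR1 and RFNG. Under that setting the WT6 slopes were -0.24 for MAML1, -0.22 for CREBBP and -0.24 for NEURL1B (limma adjusted p = 1.45e-06, 8.50e-06 and 0.00194), and without the WT6 libraries at 5 and 25 ng/ml they were -0.23, -0.13 and -0.41 (adjusted p = 0.0315, 0.296 and 0.138).

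Gamma-secretase, the protease that frees the intracellular domain, had members that rose and members that fell. In WT6, APH1B and PSENEN were among those that rose and NCSTN fell, and in WT10 PSEN2 fell. PSENEN was at 1105, 1109.7, 1071, 2424 and 2744 normalized counts in WT6, and its slope of 0.33 ± 0.06 (limma adjusted p = 0.000354) was 0.18 with length and GC trends removed (adjusted p = 0.000430) and -0.02 without the libraries at 5 and 25 ng/ml (adjusted p = 0.929). Among the highest levels per kb by role were APH1A at 2433 ± 125, HDAC1 at 1713 ± 312, SNW1 at 1041 ± 83.6, POFUT1 at 902 ± 314 and NUMB at 365 ± 33.7 (SD over all 15 libraries). HES4 had the highest mean of the other HES and HEY genes, at 1060.5 ± 742 in WT6 but 187 ± 64.4 in WT10 and 171 ± 19.7 in MUT3 (SD, n = 5). The tops of the other roles were MIB2 at 289.6 ± 27.9, FURIN at 269 ± 121, DLK2 at 210.0 ± 101 and NOTCH4, the fourth receptor, at 4.40 ± 2.37.

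**Figure D4:**
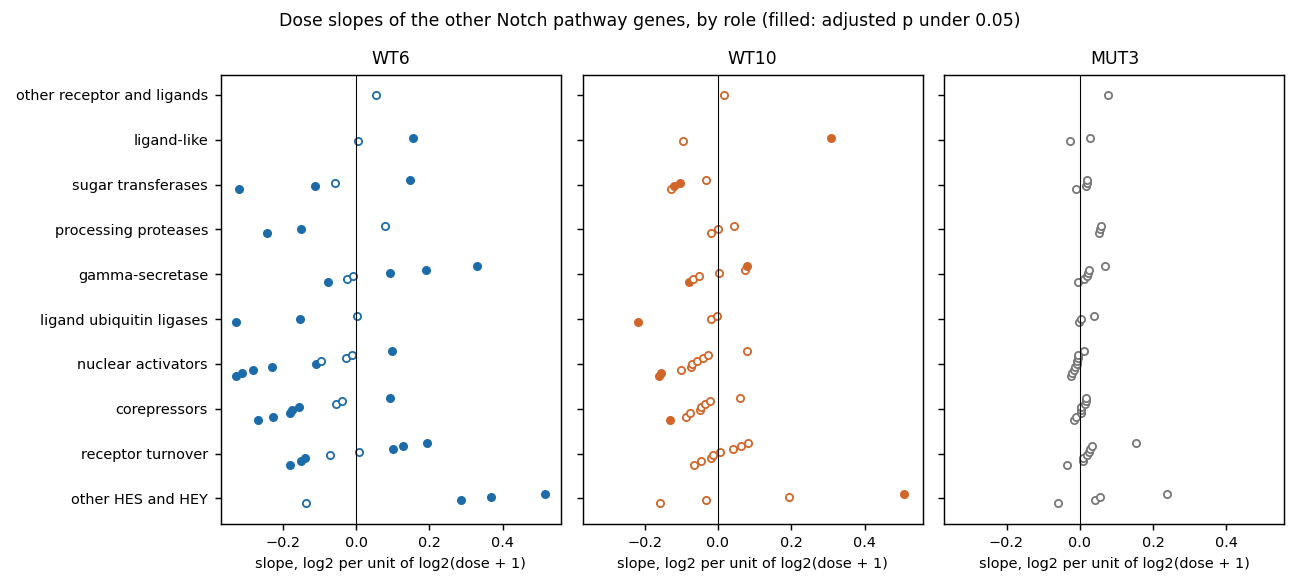
Dose slopes (horizontal axes, log2 per unit of log2(dose + 1)) of the 48 tested further pathway genes, 1 point per gene grouped by role, in WT6, WT10 and MUT3; filled points have a limma adjusted p under 0.05. In WT6 the slopes spread from -0.33 to 0.52 with other HES genes at the upper end, in WT10 HES7 at 0.51 and DNER at 0.31 lie farthest out, and no point is filled in MUT3.

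Other HES genes, repressors of the same family as HES1, rose in WT6 and 1 of them rose in WT10. Of the 8 genes listed as other HES and HEY, 4 were tested, of which HES4, HES6 and HES7 rose in WT6, HES7 rose in WT10 and none fell in either clone. Of all genes, 29.2% rose in WT6 and 10.2% in WT10. HES7, known from the segmentation clock, was at 165, 194, 214, 342 and 511 normalized counts in WT6 and at 92.0, 66.5, 88.8, 106 and 336 in WT10. In MUT3 it was at 100.04, 129.9, 77.1, 95.6 and 129.9. The WT10 library at 25 ng/ml lay far above the other 4 of that clone. The slope was 0.37 ± 0.06 in WT6 (limma adjusted p = 0.000267) and 0.51 ± 0.08 in WT10 (adjusted p = 0.000645), and without WT10 at 25 ng/ml the latter was 0.11 (adjusted p = 0.745). The WT6 slope was 0.23 with length and GC trends removed (limma adjusted p = 0.000676) and 0.20 without WT6 at 5 and 25 ng/ml (adjusted p = 0.628). HES4, whose stretch with 1 match is printed above, was at 423, 470.4, 579.7, 1286 and 1933 in WT6, at 158, 128, 141, 134 and 265 in WT10, and at 176, 152, 153, 128 and 146 in MUT3. Its slope in WT6 was 0.52 ± 0.06 (limma adjusted p = 9.24e-06), 0.29 with length and GC trends removed (adjusted p = 6.08e-06) and 0.25 without the WT6 libraries at 5 and 25 ng/ml (adjusted p = 0.248), while that in WT10 was 0.19 ± 0.08 (adjusted p = 0.103). With the dose coded as log2 of the RBM47 count, the WT6 calls of HES4 and HES7 ended (limma adjusted p = 0.221 and 0.256). The WT10 call of HES7 ended under that coding too (limma adjusted p = 0.198). HES2 and HES6 were chosen for display after their values were seen. HES2 was at 102, 127, 176, 192 and 386 in WT6, at no more than 17.6 in WT10 and at no more than 3.33 in MUT3, too low in these for the fit. HES6 was at 147 to 350.0 in WT6, highest at 25 ng/ml, at 98.5 to 116 in WT10 and at 88.0 to 112 in MUT3.

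**Figure D5:**
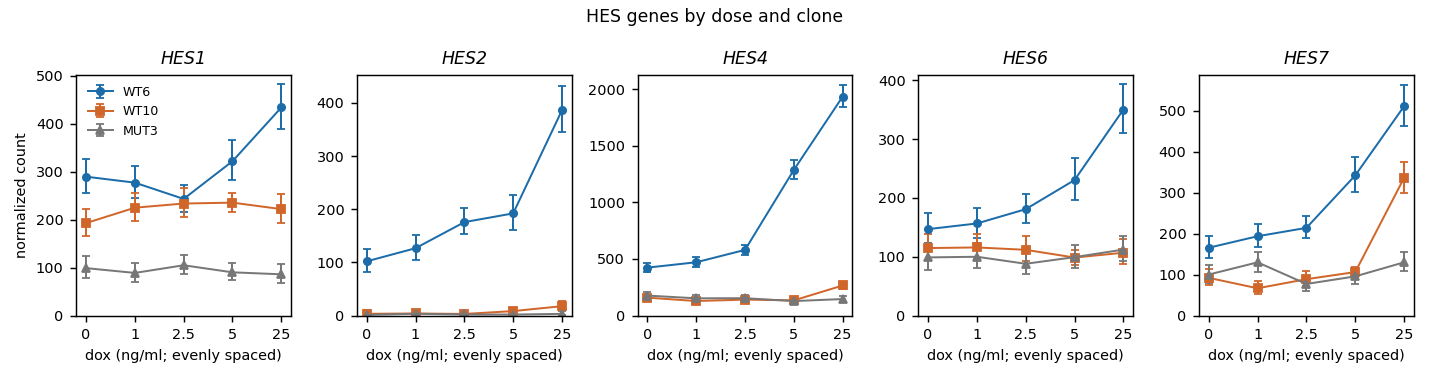
Normalized counts (vertical axes, from 0) of HES1, HES2, HES4, HES6 and HES7 at each doxycycline dose in ng/ml (horizontal axes, evenly spaced), 1 point per library, with 95% Poisson intervals of counting error. In WT6 (circles) each gene is highest at 25 ng/ml, with HES4 at 1933, and in WT10 (squares) HES7 stands out at 336. In MUT3 (triangles) HES1 is lowest at every dose, while the ranges of HES4, HES6 and HES7 overlap those of WT10.

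DNER, a membrane protein with Delta-like repeats, rose in both wild type clones. It was at 152, 198, 189, 195 and 269 normalized counts in WT6, at 108, 122, 146, 164 and 286 in WT10, and between 185 and 204 in MUT3. The slope was 0.15 ± 0.03 in WT6 (limma adjusted p = 0.00116) and 0.31 ± 0.03 in WT10 (adjusted p = 5.87e-05). That in WT6 was 0.16 with length and GC trends removed (limma adjusted p = 0.000169) and 0.17 without WT6 at 5 and 25 ng/ml (adjusted p = 0.387). In WT10 the calls of DNER, NEURL1B, MAML1 and CREBBP were lost without the library at 25 ng/ml (adjusted p 0.150 to 0.426), with slopes of 0.24, -0.23, -0.12 and -0.14.

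The difference WT10 minus MUT3 passed for HES7 (0.45 ± 0.12, limma adjusted p = 0.0376), DNER (0.28 ± 0.05, adjusted p = 0.00693), HDAC1 (-0.15 ± 0.04, adjusted p = 0.0276) and NCSTN (-0.14 ± 0.04, adjusted p = 0.0451), a gamma-secretase subunit. Leaving out single libraries lost that of DNER without WT10 (0.21, adjusted p = 0.288) or MUT3 at 25 ng/ml (0.29, 0.378). That of HDAC1 was lost without WT10 at 1 or 25 ng/ml or MUT3 at 0, 1 or 25 ng/ml (adjusted p 0.0559 to 0.531, lowest slope difference -0.15 and highest -0.08). That of HES7 was lost without WT6 at 1, WT10 at 1, 2.5 or 25, or MUT3 at 0, 1, 5 or 25 ng/ml (adjusted p 0.0512 to 0.903, differences 0.06 to 0.61). That of NCSTN was lost without WT6 at 1, WT10 at 1, 2.5, 5 or 25 ng/ml or any MUT3 library (adjusted p 0.0572 to 0.522, differences -0.14 to -0.10). Without precision weights the calls of HES7 (0.39, limma adjusted p = 0.108), HDAC1 (-0.15, 0.0504) and NCSTN (-0.14, 0.0744) ended, and that of NCSTN also ended with TMM scaling (0.0515), with genes of any read kept (0.0541) and in edgeR (0.0639). The calls of HES7, DNER, HDAC1 and NCSTN all ended with the dose coded as log2 of the RBM47 count (limma adjusted p 0.252 to 0.517). All ended as well without the libraries at 25 ng/ml (limma adjusted p 0.748 to 0.923).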

How the data were processed

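RNA-seq of 15 libraries (3 clones, 5 doxycycline doses, 1 library each) was analysed. By the study's methods, the authors used STAR for alignment (hg19), HTSeq for gene counts (0.5.4, per the submitters' processing notes) and DESeq for normalization. The deposited values are a normalized signal, reads on a gene divided by the library's size factor. The annotation and the use of strand are not given in the sources used here. The smallest nonzero value of a library was taken as 1 read, and division by it made 100% of values whole within 0.0001 reads. The 5 HTSeq tallies were left out of all tests; reads on no gene made up 56.5% to 59.6% of all reads tallied and ambiguous ones 0.527% to 0.617%.

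Groups came from the sample titles. log2(normalized count + 1) was fitted with limma 3.58.1 (R 4.3.3) with vooma weights, with 1 line per clone against log2(dose + 1), 9 residual degrees of freedom and a two-sided threshold of 0.05 on Benjamini-Hochberg adjusted p. The fit was tested on simulated data with known changes. Count tests on recovered reads (edgeR 4.0.16, DESeq2 1.42.0) and other alternatives are given in the closing section. Lengths and GC content came from GENCODE 44 on GRCh37 (91.9% of genes matched, 19556 by symbol and 1926 by an older symbol). Tables were made with Python 3.11.15, numpy 2.4.6, scipy 1.17.1 and pandas 2.3.3.

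All 9 genes are named, with the 2 most alike genes of each, and of the 58 further genes those with the largest slopes past the threshold (at most 5 per comparison) and the highest of each role. Names given for other counts, HES2, HES6 and the WT6 minus WT10 differences of further genes were chosen after their values were seen. Some genes of the lists are not reported here by name. The genes and lists were chosen with earlier results of these data known. Nothing says that libraries came from separate cultures, so p-values measure only the spread between these libraries.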

Additional observations from a re-analysis of the deposited data

Results flagged for a closer look

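Among the 9 genes and the further genes named by their slopes, 7 slope differences between clones passed the limma threshold in a test of the difference itself, out of 1 among the 9 genes and 4 and 10 among all 48 further genes for WT10 minus MUT3 and WT6 minus WT10. Of all genes, 5.62% passed for WT10 minus MUT3 and 14.4% for WT6 minus WT10. The JAG1 slope was -0.21 ± 0.06 in WT6 minus WT10 (adjusted p = 0.0285). DNER differed in both comparisons, with 0.28 ± 0.05 in WT10 minus MUT3 (adjusted p = 0.00693) and -0.15 ± 0.05 in WT6 minus WT10 (adjusted p = 0.0436), the latter lost without any 1 of 12 libraries, WT6 at 1 or 25 ng/ml or any of WT10 or MUT3 (adjusted p 0.0562 to 0.438, differences -0.19 to -0.08). HES7 differed by 0.45 ± 0.12 in WT10 minus MUT3 (adjusted p = 0.0376), HDAC1 by -0.15 ± 0.04 (adjusted p = 0.0276) and NCSTN by -0.14 ± 0.04 (adjusted p = 0.0451). HES4 differed by 0.32 ± 0.10 in WT6 minus WT10 (adjusted p = 0.0419), a difference of 0.13 with length and GC trends removed (adjusted p = 0.203) and lost without any 1 of 11 libraries, WT6 at 1 or 25, WT10 at 0, 1, 2.5 or 5 ng/ml or any of MUT3 (adjusted p 0.0508 to 0.271, differences 0.21 to 0.42). The part that library traits play in these differences was not tested beyond these values.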

How the results depend on the processing

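Of 1225 values of the 7 tested genes under the alternatives, 1175 kept their side of the threshold, of which 1136 also kept their direction and 39, called in neither fit, changed sign. Of the rest, 41 fell back behind the threshold, 8 newly passed and 1 called value changed sign. Counts of the 7 genes called moved as follows, while the shares of all genes under each setting are not given here. With the dose coded as log2 of the RBM47 count, 0 passed for the slope in WT6, WT10 and for WT6 minus WT10. Without WT6 at 5 and 25 ng/ml, 0 passed in WT6 and for WT6 minus WT10, and 2 for WT10 minus MUT3. Without the libraries at 25 ng/ml, 0 passed in WT10 and for WT6 minus WT10. Without precision weights, 1 passed in WT10. With length and GC trends removed, 1 passed for WT10 minus MUT3 and 2 for WT6 minus WT10. Among called values of these and the further genes named by their slopes, the signs that turned were those of HES1 (-0.13) and PSENEN (-0.0235) in WT6 without WT6 at 5 and 25 ng/ml. With the dose coded as log2 of the RBM47 count, the WT6 calls of HES4, HES7, PSENEN, CREBBP and NEURL1B ended (limma adjusted p 0.221 to 0.291). In WT10 those of HES7, NEURL1B, MAML1 and CREBBP ended (limma adjusted p 0.145 to 0.376), while that of DNER stayed (0.19, 0.0472). The causes were not tested.

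With 1 of the 15 libraries left out in turn, 3 to 4 of the 7 genes passed for the slope in WT6, 0 to 2 in WT10, 0 in MUT3, 0 to 2 for WT10 minus MUT3 and 0 to 1 for WT6 minus WT10, and 6 to 7 and 2 to 3 for the levels. Of the 48 further genes, with length and GC trends removed, 6 rose and 14 fell in WT10 (against 3 and 7), and 3 were higher and 6 lower for WT10 minus MUT3 (against 2 and 2); without WT6 at 5 and 25 ng/ml, 0 rose and 1 fell in WT6 (against 13 and 20), 6 rose and 18 fell in WT10, 3 were higher and 13 lower for WT10 minus MUT3 and 0 differed for WT6 minus WT10 (against 10). Shares of all genes under these settings are not given here, so it was not tested whether the 48 moved otherwise than all genes. Another pseudocount, filter or scaling (TMM) and both count tests moved none of the counts of the 7 genes by over 1.5 times. No paired analysis was possible because each clone and dose has 1 library and the labels give no replicate numbers. Depth limits NOTCH3 and DLL1, at 14 reads or fewer per library, for which no slope was fitted.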
